A study of Mus musculus with 6 samples.

Results

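Horizontal basal cells are the reserve stem cells of the olfactory epithelium. The 10 genes described here are keratins, adhesion molecules, regulators and a water channel that are associated with them. The genes were taken by symbol from a fixed list: Krt5, Krt14, Krt15, Krt17, Krt6a, Trp63, Icam1, Itga6, Aqp3 and Cebpd. All 10 were found among the 53686 symbols of the count table, and all 10 passed the filter on low counts that left 19267 genes for testing. The samples were 6 poly-A RNA libraries of main olfactory epithelium, dissected from C57BL/6J mice. The wild-type group held 3 libraries, and the other group held 3 libraries of mice hemizygous for 5x21-OR1A1, an odorant receptor transgene. The labels name no animals, ages or sexes, and p-values therefore measure the spread between these libraries, which may be technical. The study asked about receptor choice by olfactory neurons, per its title; the comparison here is of the levels of these genes between genotypes.

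In the olfactory epithelium horizontal basal cells lie flat on the basal lamina and divide rarely. Globose basal cells above them supply new neurons in ordinary turnover, and horizontal basal cells are drawn on after severe injury. The transcription factor p63, encoded by Trp63, holds them in reserve, and they leave that state when p63 is lost. They attach to the basal lamina through integrins and fill their cytoplasm with keratin filaments, each built from a type I and a type II keratin. None of these genes belongs to this cell alone. Basal cells of the nearby respiratory epithelium, duct and squamous cells also make Krt5, Krt14 and Trp63, endothelium and inflamed tissue make Icam1, and many cells make Cebpd.

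In bulk tissue, fewer cells of a type and less RNA per cell cannot be told apart. Library totals ran from 27506217 to 35804712 counts, and levels are given as CPM, read counts scaled to a common library total by TMM (trimmed mean of M-values). The defining pair Krt5 and Trp63 was present in every library, with at least 2537 and 647 counts, though other basal and squamous cells make both, so their presence does not identify the cells. Transgenic library 1 stood apart from the other 2 transgenic libraries for most of the genes. It had the highest value of 6 of the 10 genes among all 6 libraries and the lowest of none. The sum over markers of squamous epithelium and skin was high in that library too. Their 7 tested genes summed to 93.4 CPM there, against 34.4 to 36.3 CPM in the other transgenic libraries and 43.1 to 49.0 CPM in wild-type. Krt4 and Krt13, keratins of moist stratified epithelium, made up most of the excess. Krt10 and Krt1, those of cornifying skin, were at 6.87 and 2.07 CPM, within their range elsewhere. So were the other tested markers, Lor, Ivl and Sprr1a, at 2.34, 2.02 and 19.6 CPM. The part of such tissue in the values was not tested. Values without that library are given beside the results it moves most. By chi-square over degrees of freedom on the counts of all genes, transgenic library 2 was the one apart, at 196 and 178 against the other transgenic libraries, which stood at 77.5 from each other, and wild-type pairs were at 48.5 to 57.5.

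Promoter sequence was at hand from RefSeq for 4 of the 10 genes, Krt5, Krt14, Icam1 and Aqp3 (GRCm38.p6). The 2 shown are those with a match to an element that bears on a group of genes described below. The 250 bases before the start of Krt5, at chr15:101712906-101713155 on the minus strand, hold a half-site of the p53 family with a CATG core, the kind of element that p63 binds (capitals, 95 to 86 bases before the start). The 250 bases before the start of Icam1, at chr9:21015690-21015939 on the plus strand, hold GGAAATTCC, a form of the NF-kB element (capitals, 153 to 145 bases before the start).
Krt5: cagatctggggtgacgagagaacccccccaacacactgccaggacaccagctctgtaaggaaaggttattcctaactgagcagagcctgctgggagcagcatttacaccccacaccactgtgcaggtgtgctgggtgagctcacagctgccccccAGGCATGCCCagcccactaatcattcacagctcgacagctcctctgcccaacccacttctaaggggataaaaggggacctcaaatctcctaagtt
Icam1: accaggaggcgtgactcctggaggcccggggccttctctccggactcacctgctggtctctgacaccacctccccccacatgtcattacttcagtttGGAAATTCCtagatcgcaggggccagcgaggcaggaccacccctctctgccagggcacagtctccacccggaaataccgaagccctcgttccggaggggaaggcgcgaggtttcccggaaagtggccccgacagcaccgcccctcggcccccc
On either strand, that half-site was found in 1.63% and GGAAATTCC in 0.286% of the same windows of 32851 RefSeq starts. Neither was found in the window of Aqp3 or in that of Krt14, whose RefSeq start lies 1518 bases inside the GENCODE gene. The half-site with any core, TATAAA and TTGCGCAA were also searched for, and occur in 7.13%, 12.4% and 0.164% of windows. Among the 4 genes, the half-site with any core matched only the same bases of Krt5. TATAAA was found only in Aqp3, and TTGCGCAA in no window. A match describes the letters only, and no binding was measured.

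None of the 10 genes passed the threshold between genotypes. With edgeR's quasi-likelihood test 0 were called at an adjusted p under 0.05, where 2.71% of all 19267 tested genes were called, 0.519% as higher and 2.2% as lower in transgenic tissue. At an unadjusted p under 0.05 there was 1 gene, Trp63, against 17.1% of all genes. DESeq2 and limma-voom also called 0. Of the 10 fold changes 5 were above 0 and 5 below, with a median log2 fold change of -0.06, and the median over all tested genes was 0.02. The median of the 10 depended on single libraries: it was -0.53 without transgenic library 1, 0.13 and 0.14 without transgenic libraries 2 and 3, and -0.25, -0.01 and 0.08 without wild-type libraries 1, 2 and 3. The summed counts of the 10 genes were 0.107% ± 0.0185 of the library total for wild-type and 0.0946% ± 0.0308 for transgenic mice (SD, n = 3 each), a log2 ratio of -0.18 that was -0.47 without transgenic library 1. Aqp3 alone made up 51.4% ± 5.93 and 51.0% ± 8.29 of that sum.

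**Figure D1:**
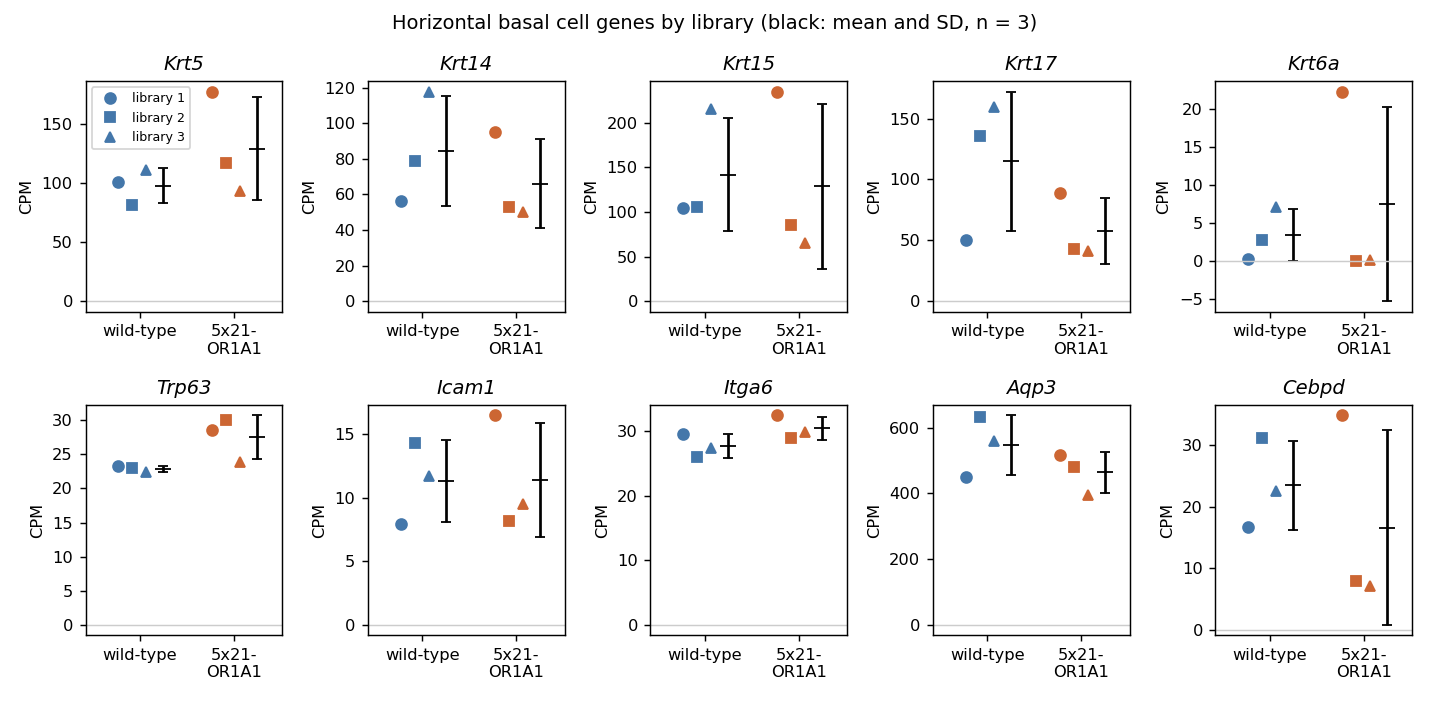
CPM of each of the 10 genes in each library (circle, square and triangle: libraries 1, 2 and 3; blue: wild-type, orange: 5x21-OR1A1; black: mean and SD, n = 3). The groups overlap for every gene but Trp63, and transgenic library 1 (orange circle) is the highest of all for Krt5, Krt15, Krt6a, Icam1, Itga6 and Cebpd.

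Trp63 encodes p63, the factor that keeps these cells in reserve. It lies on chromosome 16 at 25683763 to 25892102 (GRCm38). Its level was 23.2, 22.9 and 22.3 CPM in the wild-type libraries and 28.6, 30.0 and 23.8 CPM in the transgenic libraries. All 3 transgenic values lay above all 3 wild-type values, and the wild-type libraries were nearly equal. It was the only one of the 10 genes whose groups did not overlap, and 23.8% of all tested genes had no overlap in one direction or the other. The log2 fold change was 0.27 (SE 0.099, edgeR adjusted p = 0.224), and the 95% interval ran from 1.03-fold to 1.41-fold. Over all alternatives the value stayed between 0.20 and 0.36 and was never called.

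Krt5 and Krt14 encode the type II and type I keratins that pair in basal cells. Krt5 was at 102, 82.0 and 111 CPM in wild-type and at 178, 117 and 93.4 CPM in transgenic libraries. Transgenic library 1 was the highest, and transgenic library 3 lay inside the wild-type range. Its log2 fold change was 0.40 (SE 0.22, edgeR adjusted p = 0.416), with a 95% interval of 0.923-fold to 1.89-fold, and it was 0.10 without transgenic library 1. Krt14 was at 56.5, 78.5 and 118 CPM in wild-type and at 95.1, 53.0 and 50.1 CPM in transgenic libraries. Its log2 fold change was -0.35 (SE 0.31, edgeR adjusted p = 0.629), and -0.71 without transgenic library 1 and -0.03 without wild-type library 3. The partners had point values of opposite sign, neither of which passed, and the difference between them was not tested.

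Krt15 is a further type I keratin of basal and stem cells. It was at 105, 106 and 215 CPM in wild-type and at 235, 85.7 and 65.0 CPM in transgenic libraries. In each group 1 library was at least 2-fold above the lowest, with a ratio of highest to lowest of 2.05 in wild-type and 3.61 in transgenic tissue. The log2 fold change was -0.14 (SE 0.48, edgeR adjusted p = 0.917), and its sign depended on which library was left out. It was -0.91 without transgenic library 1 and 0.29 without wild-type library 3.

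Krt17 and Krt6a are keratins that epithelia switch on after injury or under stress. Krt17 was at 50.1, 135 and 159 CPM in wild-type and at 89.0, 42.9 and 41.1 CPM in transgenic libraries. Wild-type library 1 lay among the transgenic values and the other 2 wild-type libraries above all of them. Its log2 fold change, -0.99 (SE 0.44, edgeR adjusted p = 0.303; 95% interval 0.248-fold to 1.02-fold), was the lowest of the 10. It was -1.45 without transgenic library 1 and -1.35 without wild-type library 1 (edgeR adjusted p = 0.245 and 0.0797). Any other removal made the difference smaller. Dropping wild-type library 2 gave -0.85, and dropping wild-type library 3 gave -0.69. Dropping transgenic library 2 gave -0.82, and dropping transgenic library 3 gave -0.80 (edgeR adjusted p from 0.468 to 0.594 over these fits). Krt6a had 11, 101 and 208 counts in wild-type and 820, 2 and 6 counts in transgenic libraries. Those counts correspond to 0.349 to 7.20 CPM in wild-type and to 22.4, 0.0686 and 0.221 CPM in transgenic tissue. A single library carried nearly all transgenic Krt6a, so the log2 fold change of 1.16 (SE 1.54) became -4.55 without it (edgeR adjusted p = 0.759 and 0.234). Of the 100-base stretches of Krt6a transcripts 42.9% also occur in other genes, first among them Krt6b, and how the counting treated reads that fit both is not known here. Krt6b did not pass the filter, and was at 15.7 CPM in transgenic library 1 and at most 0.221 CPM in the other libraries. For Krt5 and Krt14 the shared stretches were 3.81% and 2.78%, and Krt15 and Krt17 had 0 of 1668 and 1452.

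Itga6 and Icam1 are surface adhesion molecules used to mark these cells. Itga6 is the integrin alpha chain that joins with Itgb4 in hemidesmosomes. It was at 29.7, 26.0 and 27.5 CPM in wild-type and at 32.5, 29.1 and 29.9 CPM in transgenic libraries. These were the closest values of the 10 genes, with a highest-to-lowest ratio of 1.25 over all 6 libraries. With a log2 fold change of 0.14 (SE 0.084, edgeR adjusted p = 0.456), the 95% interval of 0.962-fold to 1.26-fold leaves out larger changes in either direction. Icam1 was at 7.94, 14.3 and 11.7 CPM in wild-type and at 16.5, 8.17 and 9.50 CPM in transgenic libraries. Its group means were 11.3 ± 3.19 and 11.4 ± 4.45 CPM (SD, n = 3 each), and the log2 fold change was 0.01 (SE 0.30, edgeR adjusted p = 0.989). It was -0.36 without transgenic library 1 and 0.20 without the second, -0.19 without wild-type library 1 and 0.23 without the second. Up to 511 bases of an Icam1 exon lie within an antisense gene, Gm47079, and without strand in the libraries the reads of both cannot be told apart.

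Aqp3, a channel for water and glycerol in basal membranes, was the most abundant of the genes. It was at 451, 631 and 560 CPM in wild-type and at 518, 480 and 396 CPM in transgenic libraries. The groups overlapped, with wild-type library 1 below 2 of the transgenic libraries. Its log2 fold change was -0.24 (SE 0.15, edgeR adjusted p = 0.488; 95% interval 0.665-fold to 1.09-fold). Cebpd encodes a transcription factor that interleukin-6 and other inflammatory signals induce. It was at 16.8, 31.2 and 22.6 CPM in wild-type and at 34.9, 7.89 and 7.11 CPM in transgenic libraries. Transgenic library 1 held the highest value of all and the other 2 transgenic libraries the lowest. The log2 fold change moved from -0.49 (SE 0.57, edgeR adjusted p = 0.723) to -1.65 without that library (adjusted p = 0.0501). It was -0.15 and -0.13 without transgenic libraries 2 and 3, and -0.22 without wild-type library 2. Up to 562 bases of the Cebpd exon overlap an exon of Spidr on the other strand.

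Left at 5 libraries by removing transgenic library 1, the comparison still called 0 of the 10 genes, with 0.79% of genes called overall. At an unadjusted p under 0.05 it had 5 of the 10, against 12.8% of all genes. No other removal gave as many. Dropping a wild-type library gave 3 (the first), 1 (the second) or 0 (the third). Dropping the second transgenic library gave 0, and dropping the third gave 2. With transgenic library 1 removed, Krt14, Krt15, Krt17, Krt6a and Cebpd were lower in transgenic tissue with no overlap of groups. The same held for 16.7% of all genes. Trp63 was higher with no overlap, as were 16.2% of all genes. The 5 lower genes varied together over all 6 libraries (Pearson r of 0.71 to 0.92 between pairs), so they are not 5 separate results. Transgenic library 1 was singled out after its values were seen.

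**Figure D2:**
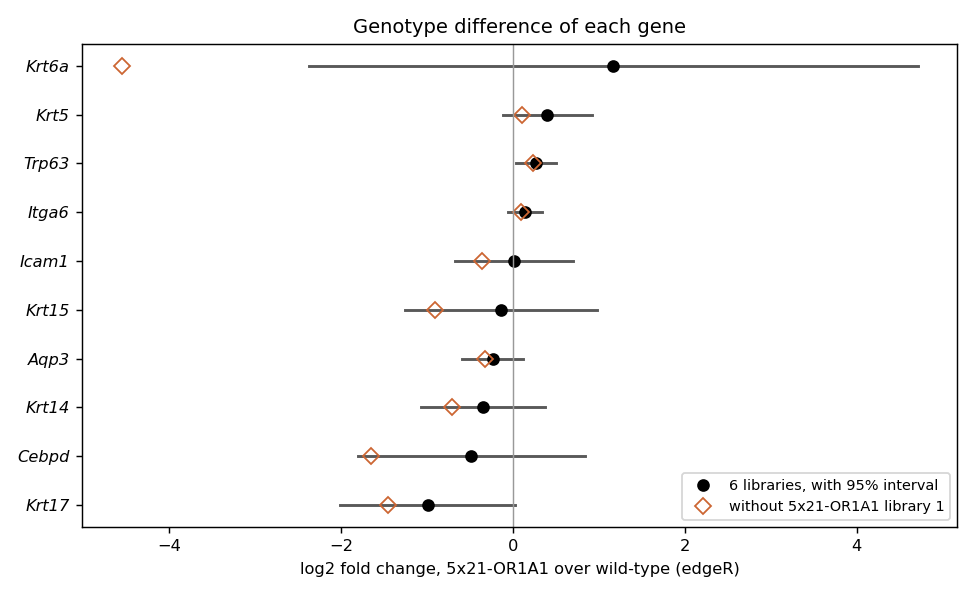
The log2 fold change of 5x21-OR1A1 over wild-type for each gene from edgeR, with all 6 libraries (black point; bar: 95% interval) and without transgenic library 1 (orange diamond). The intervals of Trp63 and Itga6 are the narrowest, and leaving the library out takes Krt6a from 1.16 to -4.55 and Cebpd from -0.49 to -1.65.

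The genes differed widely in their spread between libraries of the same group. The spread is given as the SD of log2(CPM + 0.5) within groups, beside that of the 10853 genes with a mean of at least 10 CPM, whose median was 0.119. Itga6 (0.088) and Trp63 (0.123) lay near that median, and Aqp3 (0.223) was above 87.6% of genes. Krt5 (0.367), Icam1 (0.463) and Krt14 (0.518) were above 96.9%, 98.2% and 98.6% of genes. Krt17 (0.771), Krt15 (0.805) and Cebpd (0.931) were above at least 99.4%. Krt6a, at 2.39, varied most, though its mean of 5.49 CPM was below the level set for the comparison. The transcripts of p63 and the integrin were steady between libraries, while those of Krt15, Krt17, Krt6a and Cebpd varied at least 3.17-fold within 1 of the groups.

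**Figure D3:**
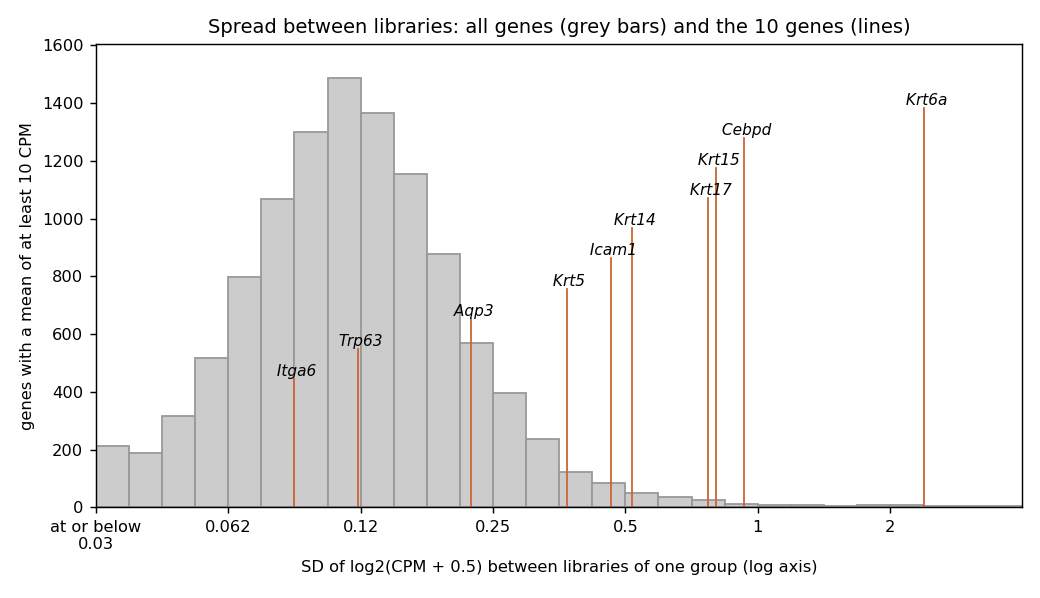
SD of log2(CPM + 0.5) between libraries of one group (log axis) against the number of genes with a mean of at least 10 CPM (grey bars), with the 10 genes as lines whose heights only separate the names. Itga6 and Trp63 stand in the body of the distribution, and 7 of the genes stand in its upper tail.

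Per kilobase of exon, the order of wild-type levels set Aqp3 first, at 299 ± 49.7 CPM per kb (SD, n = 3). Krt15 (80.2), Krt17 (74.1), Krt14 (47.9) and Krt5 (44.7) followed, and each overlapped the next in its range over wild-type libraries. Cebpd (6.28 CPM per kb), Itga6 (3.07) and Trp63 (2.72) came next without overlap between neighbours. Icam1 (2.59) overlapped Trp63, and Krt6a (1.42) overlapped Icam1. Those 4 filament keratins lay above the p63 and integrin transcripts in every wild-type library. Exon lengths were taken over all annotated transcripts, so genes with many isoforms such as Trp63 and Itga6 are placed low by this measure.

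A list of 10 genes for the hemidesmosome and basement membrane, the anchoring structures of basal cells, also had 0 called, with a median log2 fold change of 0.07. Its most abundant members per kilobase were Itgb1, the common beta integrin (0.20, edgeR adjusted p = 0.282), Cd151, a tetraspanin that binds laminin-binding integrins (0.12, 0.519) and Lamb3, a laminin chain (-0.06, 0.834). In the libraries they summed to ranges that overlapped, 505 to 573 CPM over the whole list in wild-type and 522 to 596 CPM in transgenic tissue. Of 12 p63 targets, Notch pathway genes and regulators 0 were called, with a median of 0.08. Positive values were found for 9 of the 12 and for 10199 of all 19267 tested genes. The lowest adjusted p of the list was that of Dsp, chosen after its values were seen (0.37, SE 0.093, edgeR adjusted p = 0.0927). For Perp, a desmosomal target of p63, the log2 fold change was 0.04 (edgeR adjusted p = 0.915), and for Id1, an inhibitor of differentiation factors, it was -0.11 (0.636). Sfn, an epithelial 14-3-3 protein, had -0.97 (SE 0.40, edgeR adjusted p = 0.275), at 62.0, 161 and 144 CPM in wild-type and 97.0, 44.7 and 45.5 CPM in transgenic libraries. Its order of libraries resembled that of Krt17, with wild-type libraries 2 and 3 on top.

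Among other keratins, 8 of 10 were tested and 0 were called (median -0.13, and -0.29 without transgenic library 1). Krt18, Krt8 and Krt19, which fill supporting and secretory cells, had values of -0.35, -0.34 and -0.53 (edgeR adjusted p = 0.170, 0.110 and 0.424). Their SEs were 0.11, 0.091 and 0.30. Krt18 and Krt8 were lower in every transgenic library than in any wild-type library, as were 12.5% of all tested genes, and the groups overlapped for Krt19. Krt4, a keratin of layers above the basal cells, was at 7.11, 2.44 and 6.16 CPM in wild-type and at 32.4, 10.2 and 5.49 CPM in transgenic libraries, again with library 1 on top. Of 6 other aquaporins 5 were tested and 0 called, and Aqp5, Aqp1 and Aqp4 had values of -0.21, 0.22 and 0.03. Of 12 genes of the NF-kB and interleukin-6 response, the signals that induce Icam1 and Cebpd, 0 were called, with a median of -0.26, and -0.44 without transgenic library 1. Nfkbia, the inhibitor that NF-kB itself induces, had a value of -0.16, and Lcn2, an antibacterial protein, -0.50 (edgeR adjusted p = 0.736 and 0.562). Stat3, a transcription factor of the interleukin-6 response, had -0.09 (edgeR adjusted p = 0.689).

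Globose basal cells and progenitors, the dividing neighbours of horizontal basal cells, were read in the same fit. Of 9 of their genes 5 rose and 0 fell, where 2.71% of all genes were called, with a median of 0.60, among them Insm1, a neurogenic transcription factor (0.97, SE 0.13, edgeR adjusted p = 0.00896), Neurod1 (0.84) and Top2a, a gene of dividing cells (0.60). Without transgenic library 1, 1 of the 9 was called, against 0.79% of all genes, with a median of 0.61. Of 8 mature neuron markers 4 fell, Omp (-0.76), Gng13 (-0.81), Gfy (-0.76) and Cnga4 (-0.68), with a median of -0.71, and without that library 0 were called at a median of -0.69. The markers' share of counts was 1.98% ± 0.266 for wild-type and 1.19% ± 0.0472 for transgenic mice (SD, n = 3 each). Whether the 10 genes differ from the progenitor genes in their response was not tested.

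Markers of other cell types were read in the same libraries. No tested member was called among 7 squamous and skin markers (median -0.21, and -0.64 without transgenic library 1), 4 myoepithelial markers (0.13), 6 endothelial markers (0.45), 5 leukocyte markers (0.19), 6 respiratory ciliated cell markers (0.08) or 5 respiratory secretory markers (-0.05). The same held for 5 supporting cell markers (-0.22) and 5 ensheathing glia markers (-0.12). Over all tested genes 2.71% were called, so 0 called in lists this small says little about these cells. Endothelial markers summed to 35.6 to 72.9 CPM in wild-type and 62.5 to 68.0 CPM in transgenic libraries. All 6 had positive values, as had 10199 of all 19267 tested genes. The endothelial sum was lowest in wild-type library 2, which had the second highest Icam1. The 4 tested genes of the myoepithelial list, whose cells also make Krt14, summed to 212 CPM in wild-type library 3 and to 286 to 345 CPM elsewhere. Krt14 was highest in wild-type library 3. Acta2 alone was at 159 CPM of the sum in that library, and these genes were not shown to mark myoepithelial cells alone. The part of either cell type in the values of Icam1 or Krt14 was not tested.

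**Figure D4:**
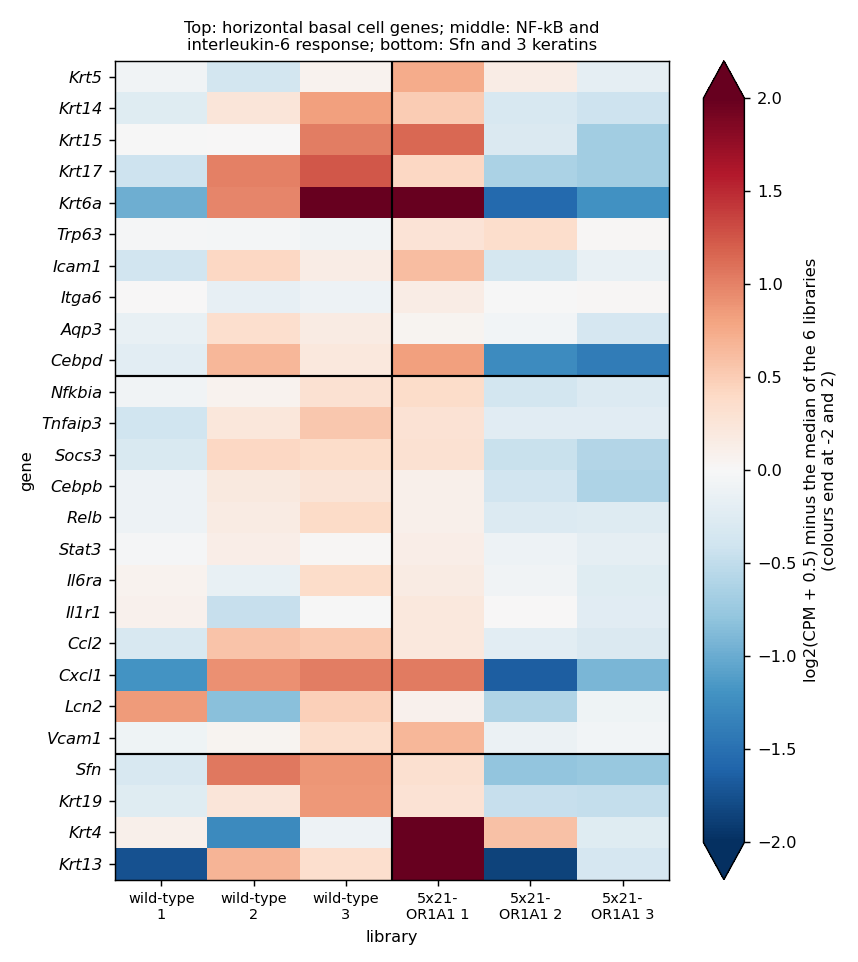
Level of each gene in each library as log2(CPM + 0.5) minus the median of the 6 libraries (red: above, blue: below; colours end at -2 and 2), with the 10 genes on top, the NF-kB and interleukin-6 response below and Sfn, Krt19, Krt4 and Krt13, chosen after their values were seen, at the bottom. Krt17, Cebpd, Socs3 and Cxcl1, picked for it, have their highest values in wild-type libraries 2 and 3 and transgenic library 1. Lcn2 and Il1r1 are below their medians in wild-type library 2, and Trp63 and Itga6 stay near 0 throughout.

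The genes most like Krt5 over the 6 libraries were sought among 10844 genes with a mean of at least 10 CPM. They were Cast (Pearson r = 0.996), Krt4 (0.978), Pkp1 (0.976), Txnip (0.962) and Dnajb5 (0.961). Cast encodes the calpain inhibitor calpastatin, Pkp1 a desmosomal plakophilin of stratified epithelium, and Txnip a thioredoxin-binding protein. Spearman's rho was 1 for Cast and 0.943 for the other 4. With transgenic library 1 and wild-type library 2 left out, the libraries farthest from the median of Krt5, r was 0.959 for Cast and 0.672 to 0.780 for the others. These are the highest of many values over 6 libraries that share depth and tissue makeup, and no p is given.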

How the data were processed

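The authors deposited raw read counts per gene symbol for each library, with no normalization. Per the labels' protocols, the TruSeq libraries were poly-A selected, kept no strand and gave single-end reads of 100 bases. The submitters' processing notes name TopHat2 2.1.1, HTSeq 0.9.1 and GRCm38.p5. How reads with several matches were counted, and with which annotation, is not stated in the labels.

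Counts were fitted with edgeR 4.0.16 in R 4.3.3 on all 6 libraries: TMM scaling, the default filter (minimum count 10, minimum total 15), the quasi-likelihood test of genotype, with p-values adjusted by Benjamini-Hochberg across 19267 genes. The threshold was an adjusted p of 0.05. Standard errors are the log2 fold change over the square root of F, and 95% intervals use the test's degrees of freedom. Counting error was relatively largest for Krt6a, which had 2 to 11 counts in 3 libraries. The tests were checked on simulated data. Replicates differed by far more than counting noise (chi-square over degrees of freedom of 48.5 to 196).

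The 10 genes and all lists were chosen with earlier results of these data known. Named genes are the 10, then up to 4 called genes of each list or else its 3 most abundant per kilobase, and the 5 most like Krt5; further genes in the text, among them Krt6b, Krt1, Krt13, Cxcl1, the immediate early genes and Muc5ac, were chosen after their values were seen. An item that the rule names is not reported here. Alternatives were RLE size factors, library totals, DESeq2 1.42.0, limma-voom (limma 3.58.1), other filters, a replicate block and leaving out each library. Coordinates and exon lengths come from GENCODE (GRCm38) and promoter sequence from RefSeq (GRCm38.p6).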

Additional observations from a re-analysis of the deposited data

How the results depend on the processing

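None of the 10 genes was called under any alternative tried, and Krt5, Krt14, Krt17, Trp63, Itga6, Aqp3 and Cebpd kept their sign in all 13. Krt6a was -1.05 with limma-voom and -1.59 with the replicate block, and ranged from -4.55 to 2.27 when a library was left out. Icam1 was -0.0025 with DESeq2 and -0.022 with the replicate block, and ranged from -0.36 to 0.23 without single libraries. Krt15 ranged from -0.91 to 0.29 in the same way. The cause was not tested. The share of counts taken by the 10 genes, with a log2 ratio of -0.18, was 0.55 when divided by the mature neuron marker counts, whose own share was lower in transgenic tissue, and -0.47 to -0.005 with a library left out. Over all genes DESeq2 called 1195 against 523 with edgeR, and leaving out 1 library gave 150 to 626 (313 without wild-type library 2; 155 without the first, 175 without the second and 150 without the third transgenic library).

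The replicate block called 377 genes in all and 0 of the 10. Same-numbered libraries deviated from their group means with correlations of -0.50, 0.13 and 0.11, so the numbers were not taken to pair the libraries.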

Other observations

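Most of the 10 genes had their 3 highest values in the same libraries, a set that cut across genotype. Wild-type libraries 2 and 3 and transgenic library 1 held the highest values of 7 of the 10 genes, Krt14, Krt15, Krt17, Krt6a, Icam1, Aqp3 and Cebpd, and of 7.33% of all tested genes. The same libraries were on top for 9 of 12 genes of the NF-kB and interleukin-6 response. They were not for Il6ra, Il1r1 and Lcn2. Lcn2 was at 95.2, 29.2 and 72.8 CPM in wild-type and at 55.7, 34.3 and 49.4 CPM in transgenic libraries. Nfkbia, the inhibitor of NF-kB, was at 44.9, 49.8 and 58.7 CPM in wild-type and at 61.2, 36.7 and 39.2 CPM in transgenic libraries. Cxcl1, a chemokine that NF-kB induces, was at 0.699, 4.70 and 5.09 CPM and at 5.18, 0.377 and 0.958 CPM. Of 10 hemidesmosome genes 1 had this set on top, Itga3, and of 9 progenitor genes 0. Within the set the order differed, with wild-type library 3 first for Krt17 and transgenic library 1 first for Icam1. The set was chosen after the values were seen, and the libraries it names are no groups of the study.

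Immediate early genes, which respond within minutes to stimulation and tissue handling, were read beside it. Fos was at 10.1, 32.8 and 16.2 CPM in wild-type and at 16.7, 6.96 and 5.45 CPM in transgenic libraries, and Fosb at 0.889, 9.23 and 5.57 CPM and at 4.85, 0.892 and 0.626 CPM. Jun, at 50.7 to 67.3 CPM over all libraries, varied less. Of 7 such genes read, 5 (Egr1, Fos, Fosb, Junb and Atf3) had their 3 highest values in the same libraries as Krt17 and Cebpd. Jun did not, and Ier2 was highest in all 3 wild-type libraries, at 84.5, 139 and 105 CPM against 57.4 to 68.6 CPM in transgenic libraries. Their part in the keratin values was not tested. Among respiratory secretory markers, Muc5ac, a mucin of goblet cells, was at 143, 12.4 and 88.0 CPM in wild-type and at 9.95, 6.48 and 14.4 CPM in transgenic libraries (log2 fold change -2.98, SE 0.76, edgeR adjusted p = 0.0943).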
